A study of Mus musculus with 4 samples.

Results

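Transcripts of 9 genes of the complement system were followed in alveolar macrophages (AMs), which live in the airspace of the lung. The genes were taken by symbol from a table of 54532 genes. They are C1qa, C1qb and C1qc, which encode the chains of C1q, C3, Cfb and Cfp, which encode proteins of the C3-cleaving enzyme of the alternative pathway or its stabiliser, and C3ar1, C5ar1 and Vsig4, which encode receptors. All 9 were found, each as a single row, and 8 passed the filter on low counts. The control group held 2 libraries of AMs from female wild-type mice without a tumor. The tumor group held 2 libraries of AMs from female wild-type mice that had carried a primary tumor of 4T1 cells, a mouse mammary carcinoma line, for 2 weeks. Per the methods of the study, wild-type mice were young adults on a BALB/c background and 4T1 cells were placed in the mammary fat pad. No genetic change or further treatment separated the groups. The RNA-seq methods say only that AMs were purified. AMs isolated from the lungs of such mice for imaging, which the study describes together with the RNA-seq, were CD45+ CD11b- CD11c+ SiglecF+, a gate that would remove CD11b+ neutrophils and eosinophils and CD45- hepatocytes. The sources do not say whether a library came from 1 mouse or from a pool, so p-values measure only the spread between these libraries. Total counts ranged from 16167147 to 19205737, and the 9 genes together took between 0.111% and 0.127% of a library. Of 14 AM identity genes none was at 0 counts, and their summed level was between 11594 and 15284 CPM over the 4 libraries, led by Chil3 in both groups. CPM are counts scaled to a common library size by the trimmed mean of M values (TMM).

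Complement is a cascade of proteins that marks microbes, immune complexes and dying cells for uptake. C1q starts the classical pathway when its globular heads bind a target, and in tissues it is made mainly by macrophages and dendritic cells rather than by the liver. C3 stands where all pathways meet. Its larger fragment coats the target, and its small fragment C3a, like C5a from C5, calls and activates leukocytes through a receptor of its own. In the airspace, AMs clear coated particles and dead cells.

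The C1q genes are introduced first because they lie together and were lower together. They sit on the minus strand of chromosome 4 in the order C1qb, C1qc and C1qa, within 18675 bases (136880129 to 136898803, GRCm38), with gaps of 3616 and 2851 bases and with no other annotated gene between them. Each was annotated with 3 exons in its longest transcript. RefSeq promoter sequences (GRCm38.p6) were at hand for 7 of the 9 genes. The 250 bases upstream of the RefSeq start site are shown for C1qb and C1qc, the C1q genes with such a sequence. They are also shown for C3ar1, the gene with the largest rise of the set. All 3 are on the minus strand, at chr4:136886201-136886450 for C1qb, chr4:136892915-136893164 for C1qc and chr6:122856158-122856407 for C3ar1. The gene annotation used for the other coordinates ends C1qc at 136893065 and C3ar1 at 122856161. Part of the C1qc window, and a few bases of the C3ar1 window, therefore lie inside the annotated gene. Capitals mark matches, on either strand, to the searched letters of a PU.1 site (GAGGAA) or a MAF half-site (TGCTGA).
C1qb: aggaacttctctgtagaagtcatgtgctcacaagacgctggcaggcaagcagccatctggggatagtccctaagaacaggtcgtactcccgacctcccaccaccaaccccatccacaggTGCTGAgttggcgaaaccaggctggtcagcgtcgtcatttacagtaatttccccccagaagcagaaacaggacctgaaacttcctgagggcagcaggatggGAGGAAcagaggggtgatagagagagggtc
C1qc: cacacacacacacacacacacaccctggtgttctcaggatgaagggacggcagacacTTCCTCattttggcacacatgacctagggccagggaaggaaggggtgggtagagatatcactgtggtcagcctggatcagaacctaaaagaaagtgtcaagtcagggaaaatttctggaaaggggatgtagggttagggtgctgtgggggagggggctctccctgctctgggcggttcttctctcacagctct
C3ar1: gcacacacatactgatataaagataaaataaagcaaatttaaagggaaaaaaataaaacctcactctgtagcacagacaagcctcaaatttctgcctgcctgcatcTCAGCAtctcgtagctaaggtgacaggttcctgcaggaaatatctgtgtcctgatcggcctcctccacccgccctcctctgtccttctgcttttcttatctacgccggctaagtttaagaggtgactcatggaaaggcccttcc
The promoter of C1qb held 1 match to the PU.1 letters and 1 to the MAF letters, that of C1qc 1 match to the PU.1 letters, and that of C3ar1 1 match to the MAF letters. Among 32851 RefSeq windows of this length, 23.3% held the PU.1 and 16.1% the MAF letters, so both are common. The core letters bound by the aryl hydrocarbon receptor (GCGTG), the factor that the study is about, stood in 1 of the 7 windows, that of Cfp at position -233 from the start site, and in 28.2% of all windows. Of the same 7, 3 held the PU.1 letters (C1qb, C1qc and Vsig4), 4 the MAF letters (C1qb, C3, C3ar1 and C5ar1) and 1, that of C3, the letters of a C/EBP site (TTGCNNAA), which 9.56% of all windows held. The letters of a STAT site (TTCNNNGAA) were in none of the 7, and in 7.02% of all windows. These matches describe letters only, and binding was not measured.

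Per length, the 9 genes spanned a wide range of levels in control AMs. In TPM, which divides counts by gene length and scales each library to the same sum, C5ar1 stood at 548.5 ± 8.79 and C3 at 450.8 ± 3.41 (SD, n = 2), above 98.9% and 98.7% of protein-coding genes. Cfp followed at 152.2 ± 0.142 TPM. The C1q chains came next at 30.6 ± 1.14 TPM for C1qa, 21.1 ± 0.573 for C1qb and 10.1 ± 0.245 for C1qc. Cfb at 5.61 ± 0.440 and C3ar1 at 2.30 ± 0.0310 TPM were low, and Vsig4 was lowest at 0.419 ± 0.212. No neighbours in this order overlapped between the control libraries. In the tumor libraries C3, at 409.3 ± 6.22 TPM, stood above C5ar1, at 375.2 ± 0.968, and Cfp followed at 200.2 ± 0.322. C1qa stood at 16.9 ± 0.455 and C1qb at 8.78 ± 0.720 TPM. C3ar1 rose to 5.65 ± 0.631 TPM, a level at which its 2 values overlapped with those of C1qc, at 4.73 ± 1.31, and the values of C1qc overlapped in turn with those of Cfb, at 3.99 ± 0.226.

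**Figure D1:**
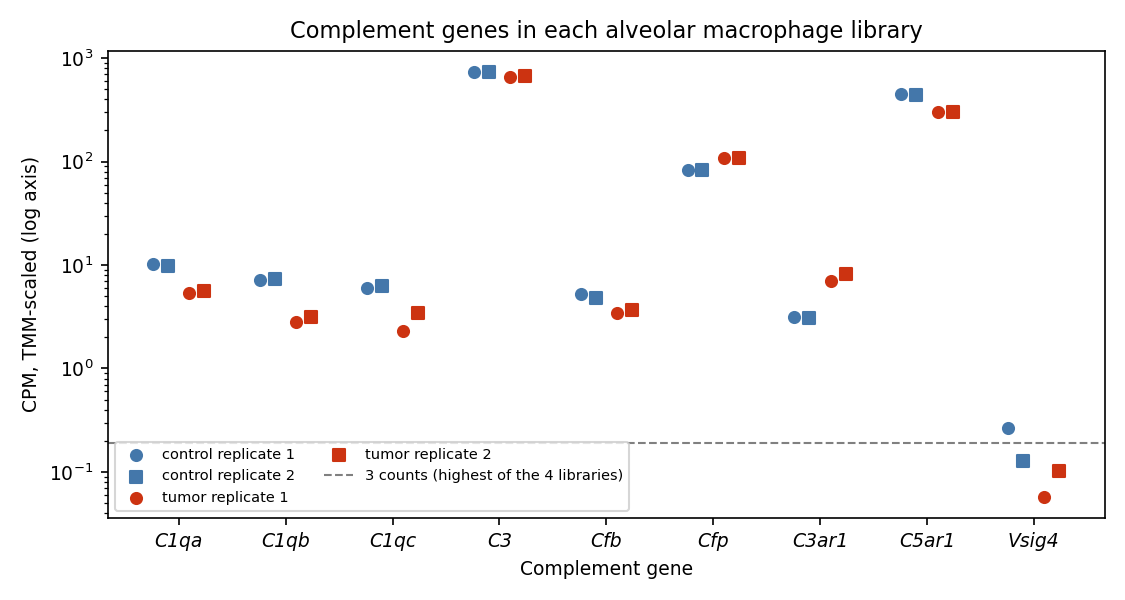
Level of each of the 9 complement genes in each library, as TMM-scaled CPM on a log axis; circles and squares are replicates 1 and 2, blue is control, red is tumor, and the dashed line is the highest value that 3 counts take in a library. C3 and C5ar1 lie near the top in all libraries, the C1q genes are lower in both tumor libraries, C3ar1 and Cfp are higher in both, and Vsig4 lies near or under the line.

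The comparison of tumor with control AMs asked which complement transcripts differ at a time when, per the study, no lung metastasis is visible. Of the 8 genes tested, the tumor libraries held 2 at a higher and 6 at a lower level, at an adjusted p below 0.05 by edgeR. Over all 14256 genes tested, 53.8% were called, 29.0% as higher and 24.8% as lower, so a call in itself sets no gene of this set apart. Their median log2 fold change was -0.53, beside 0.02 over all genes tested. The values of the groups did not overlap for any of the 8, and 75.1% of all genes tested likewise did not overlap. Sizes are therefore given with their intervals below.

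C1qa, which encodes the A chain, had 193 and 155 counts in the control group against 94 and 110 in the tumor group. These are 10.3 and 9.82 CPM against 5.43 and 5.61 CPM, so both tumor values lay well under both control values. It was 1.82-fold lower, with a log2 fold change of -0.87 ± 0.156 (SE), a 95% interval from -1.19 to -0.55 and an edgeR adjusted p of 2.95e-05. C1qb, for the B chain, had 133 and 117 counts in the control and 49 and 62 in the tumor libraries. At 7.10 and 7.41 against 2.83 and 3.16 CPM it showed the deepest fall of the set, 2.41-fold, with a log2 fold change of -1.27 ± 0.195 (SE), an interval from -1.67 to -0.87 and an adjusted p of 3.07e-06. C1qc, for the C chain, had 113 and 99 counts in the control and 40 and 67 in the tumor libraries. Its tumor values, 2.31 and 3.41 CPM, were farther apart than those of the other chains but still under both control values, 6.03 and 6.27 CPM. It was 2.13-fold lower, with a log2 fold change of -1.09 ± 0.214 (SE), an interval from -1.53 to -0.65 and an adjusted p of 9.10e-05. The 3 intervals overlapped, and no difference between the falls of the chains was tested. Without tumor replicate 2 the order turned, with C1qc at -1.41 and C1qb at -1.36 on the log2 scale.

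The C1q protein holds its A, B and C chains in equal number, so their transcripts were also compared per length within each library. C1qa exceeded C1qb by 1.52-fold and 1.39-fold in the control libraries and by 2.01-fold and 1.86-fold in the tumor libraries. C1qb exceeded C1qc by 2.09-fold and 2.10-fold in the control and by 2.17-fold and 1.64-fold in the tumor libraries. The order C1qa, C1qb, C1qc thus held in each library, and the share of C1qa in the summed TPM of the chains went from 48.4% and 50.7% in control to 53.6% and 57.9% in tumor libraries. The size of the gap to C1qc rests on the length used for that gene. The table lists it as 1931 bases, against 1203 for its longest annotated transcript, and with the longest transcript of every gene the control means were 25.0, 17.2 and 13.2 TPM for C1qa, C1qb and C1qc.

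**Figure D2:**
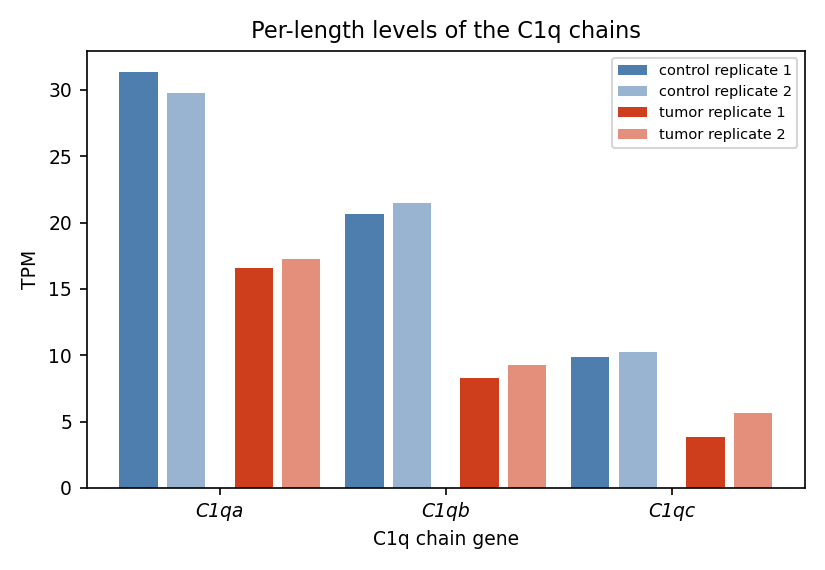
Level per length (TPM, from 0) of the C1q chain genes; each bar is 1 library, darker bars are replicate 1 and lighter bars replicate 2. C1qa stands above C1qb and C1qb above C1qc in all 4 libraries, and the tumor bars of each chain, at most 17.2 TPM, lie under its control bars.

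Markers of other macrophages that also carry C1q were read beside this fall. In the list of monocyte and interstitial macrophage genes, 4 of 11 were higher, 3 were lower, 2 did not pass the test and 2 were not tested, beside 29.0% and 24.8% of all genes tested. Its summed level was between 364.7 and 364.8 CPM in the control and between 399.4 and 407.3 CPM in the tumor libraries, and no gene of it was at 0 in all libraries, though Folr2, with 5 and 3 control counts, was at 0 in both tumor libraries. Csf1r led the list, at 331.4 and 332.6 CPM in the control and 368.9 and 360.3 CPM in the tumor libraries. The sum therefore mostly follows Csf1r and says little about the other genes of the list. The lower genes were Cd163 (log2 fold change -2.07), a haemoglobin scavenger receptor, Pf4 (-2.24) and Cx3cr1 (-1.71), while Ccr2, a receptor of recruited monocytes, rose by 1.33. Cd163 went from 122 and 87 counts to 22 and 31. Ly6c2, among the higher genes, had 2 and 7 control counts against 14 and 41 tumor counts. It passed the filter through the tumor group and could only come out higher. In the dendritic cell list 3 of 7 genes were higher and 1 was lower, with sums of 13.1 and 13.3 CPM in the control and 37.0 and 38.7 CPM in the tumor libraries. Of the higher ones Flt3, with 9 and 5 control counts against 63 and 90 tumor counts, likewise could only come out higher. In bulk RNA, fewer cells of a type and less transcript per cell cannot be told apart, and the part of these cells in the C1q values was not tested. By the profile of centred log2 CPM over the 4 libraries, the genes most like the mean of the C1q chains among 9556 genes with at least 100 counts on average were Zfp397, Sh2d4b, Dusp18, Rrs1 and Nod2, at Euclidean distances from 0.037 to 0.065. With 4 libraries in 2 groups this likeness describes a similar fall and little else.

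Of the proteins around the C3-cleaving enzyme, C3 and Cfb were lower and Cfp was higher. C3 lies on chromosome 17 (57203970 to 57228136, minus strand) and had 13785 and 11545 counts in the control and 11347 and 13060 in the tumor libraries. That is 735.4 and 731.5 against 655.3 and 665.6 CPM, a fall of 1.11-fold with narrow groups. Its log2 fold change was -0.15 ± 0.0224 (SE), with an interval from -0.20 to -0.11 and an edgeR adjusted p of 1.66e-06, but with scaling on AM identity genes it was instead higher by 0.31, and over the alternatives the adjusted p lay between 5.63e-10 and 0.00218. C3 therefore has no direction that holds under both scalings.

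Cfb, on chromosome 17 (34856374 to 34862518), encodes factor B, which supplies the protease of the alternative pathway. It had 99 and 75 counts in the control and 59 and 72 in the tumor libraries, or 5.28 and 4.75 against 3.41 and 3.67 CPM. The fall was 1.42-fold, or -0.50 ± 0.204 on the log2 scale (SE), with an interval from -0.92 to -0.08, and had an edgeR adjusted p of 0.0391. This call was lost under 8 of the 12 alternatives, among them each setting without control replicate 1 (-0.43), control replicate 2 (-0.60) or tumor replicate 1 (-0.46), and over all 12 the adjusted p lay between 0.0373 and 0.849. The annotated gene Gm20547, listed at 0 counts in all libraries, covers 6107 of the 6145 bases of Cfb on the same strand, and how reads in shared exons were counted is not stated, so the Cfb counts are uncertain. Per length, C3 exceeded Cfb by 76.5-fold and 84.6-fold in the control and by 105.6-fold and 99.6-fold in the tumor libraries.

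Cfp, on the X chromosome (20925454 to 20931555), encodes properdin, which stabilises the enzyme and is stored by neutrophils as well as made by macrophages. Its 1562 and 1324 counts in the control libraries stood against 1896 and 2131 in the tumor libraries. At 83.3 and 83.9 against 109.5 and 108.6 CPM, replicates lay close and the groups far apart. Cfp rose 1.30-fold, with a log2 fold change of 0.38 ± 0.0455 (SE), an interval from 0.29 to 0.48 and an adjusted p of 4.03e-08. The ratio of C3 to Cfp, per length, went from 2.98 and 2.94 to 2.02 and 2.07.

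The receptors moved apart. C3ar1, the receptor of C3a on chromosome 6 (122847138 to 122856161), had 59 and 49 counts in the control and 122 and 161 in the tumor libraries. At 3.15 and 3.10 against 7.05 and 8.21 CPM it was the gene of the set with the largest rise, 2.44-fold, with a log2 fold change of 1.29 ± 0.194 (SE), an interval from 0.89 to 1.69 and an adjusted p of 2.25e-06. C5ar1, the receptor of C5a on chromosome 7 (16246743 to 16259540), had 8431 and 6977 counts in the control and 5244 and 5929 in the tumor libraries. It fell from 449.8 and 442.1 to 302.8 and 302.2 CPM. This is a fall of 1.47-fold, with a log2 fold change of -0.56 ± 0.0271 (SE), an interval from -0.62 to -0.50 and an adjusted p of 2.15e-16. Per length, C5ar1 exceeded C3ar1 by 239.4-fold and 238.5-fold in the control and by 72.0-fold and 61.7-fold in the tumor libraries, so C5ar1 remained the far more abundant receptor transcript.

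Vsig4 encodes CRIg, a receptor for C3 fragments that is known from Kupffer cells, the macrophages of the liver. It lies on the X chromosome (96247203 to 96293438) and had 5 and 2 counts in the control and 1 and 2 in the tumor libraries. Only control replicate 1 was above the floor of 3 counts, at or under which no expression was read. This floor covers counting error alone. The gene was not tested in the main comparison, and no difference was detectable at this depth. Of 4 Kupffer cell genes, 2 were tested, of which Timd4, the most abundant in both groups, was not called and Cd5l was lower, though it had under 10 counts in both tumor libraries and passed the filter through the control group, so it could only come out lower. Their summed level was between 1.90 and 1.92 CPM in the control and between 1.27 and 1.56 CPM in the tumor libraries, and Clec4f, a defining marker, was at 0 in each control library against 3 and 10 counts in the tumor group.

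The scaling bears on each of these sizes. Among the 14 AM identity genes 12 had a lower and 1 a higher level and 1 did not pass, beside 24.8% and 29.0% of all genes tested, with a median log2 fold change of -0.46. Scaling the libraries on this list shifted the median of all genes tested from 0.02 to 0.48, and 67.1% of them were then called higher and 5.56% lower. Of the 14 identity genes themselves, 6 were then called higher, 6 lower and 2 were not called, so the list did not move as a block. Relative to AM identity genes, the C1q chains were still called lower, by -0.41 ± 0.161 for C1qa, -0.81 ± 0.201 for C1qb and -0.63 ± 0.216 for C1qc (log2, SE), with edgeR adjusted p of 0.0228, 0.000487 and 0.00900, the highest p of each gene over its alternatives. C3ar1 and Cfp were higher by 1.74 ± 0.196 and 0.84 ± 0.0532. C5ar1 changed by -0.10 ± 0.0390, with an edgeR adjusted p of 0.0214, and Cfb by -0.05 ± 0.210, which was not called. Over its 12 alternatives the adjusted p of C5ar1 ranged from 6.73e-74 to 0.0214.

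**Figure D3:**
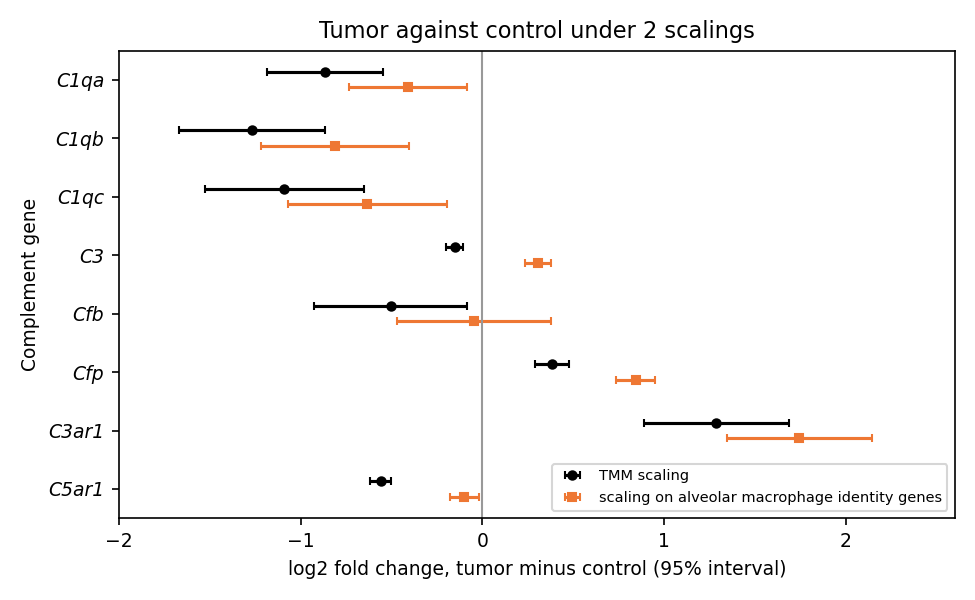
Log2 fold change of the 8 tested genes, tumor minus control, with its 95% interval, under TMM scaling (black circles) and under scaling on AM identity genes (orange squares). The C1q chains lie under 0 and C3ar1 and Cfp above 0 under both scalings, whereas C3 goes from -0.15 to 0.31 and the interval of Cfb, from -0.92 to -0.08 under TMM scaling, includes 0 under the other.

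Transcripts of cells outside the airspace macrophage moved with these comparisons, in counts to be read beside the 29.0% of all genes called higher and the 24.8% called lower. All 12 neutrophil genes were higher, with a summed level between 113.7 and 113.9 CPM in the control and between 4495 and 4511 CPM in the tumor libraries, and Elane at 0 in both controls. Csf3r led the list in the control and S100a9 in the tumor libraries. All 5 eosinophil genes were higher, from 0.480 and 0.507 CPM to 2224 and 2204 CPM in sum, led by Prg2 in the latter and with Prg3 at 0 in both controls. Of 12 hepatocyte genes, 11 were higher and 1 was lower, with sums of 142.8 and 144.3 CPM in the control and 872.3 and 861.8 CPM in the tumor libraries. The lower one, Trf, which was higher under scaling on AM identity genes, led the control sum, Alb led the tumor sum, and 8 of the 12, Alb among them, were at 0 in both controls. All 6 basophil and mast cell genes were higher, with sums of 0.267 and 0.634 CPM in the control and 62.9 and 55.04 CPM in the tumor libraries. Of 8 lung epithelial genes 6 were lower, 1 was higher and 1 did not pass, and their sum went from 214.0 and 220.4 to 141.8 and 146.1 CPM, whereas scaling on AM identity genes called 3 of them higher and 2 lower. Of 5 B cell genes 4 were higher, of the 4 T and NK cell genes tested 2, and of 7 endothelial and fibroblast genes 5, with 0 lower in each list. Their sums were 6.30 and 6.21, 3.68 and 4.31, and 8.11 and 6.46 CPM in the control libraries. In the tumor libraries they were 12.2 and 13.2, 14.7 and 15.1, and 30.1 and 27.3 CPM. Some tested genes had under 10 counts in both controls. These were 6 of the 12 neutrophil, 10 of the 12 hepatocyte, all 5 eosinophil, all 6 basophil and mast cell, 1 of the 4 T and NK cell and 4 of the 7 endothelial and fibroblast genes. They passed the filter through the tumor group and could only come out higher, so their counts are descriptions. Neutrophils are known to carry C5ar1 and properdin, and hepatocytes to make C3 and factor B. The part of these cells in the values of the 9 genes was not tested.

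**Figure D4:**
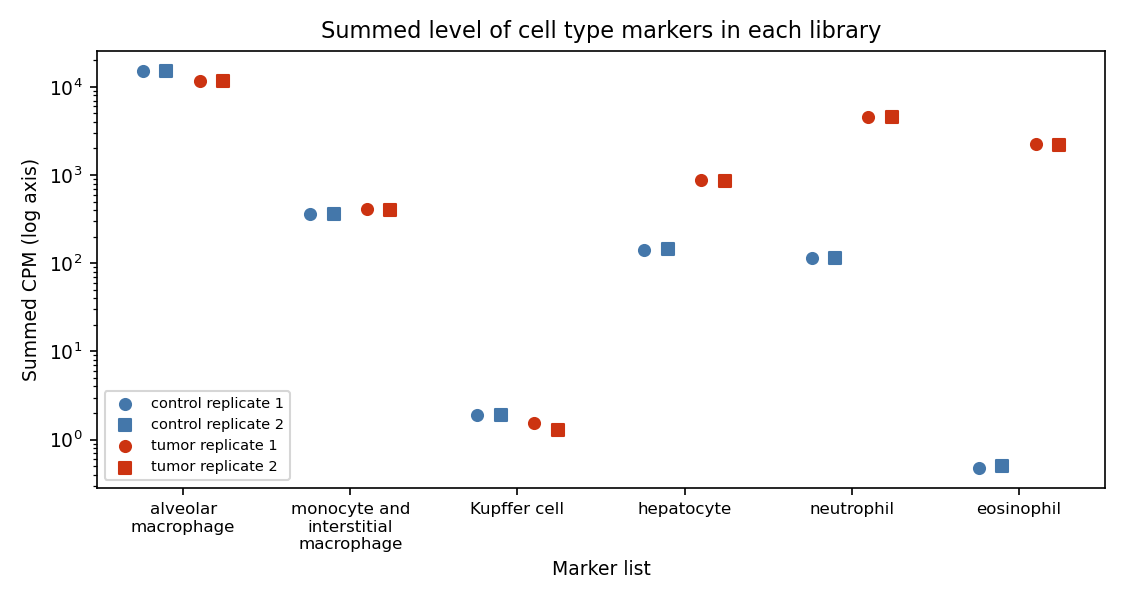
Summed TMM-scaled CPM of 6 marker lists in each library, on a log axis, with symbols as in the plot of the 9 genes. The neutrophil, eosinophil and hepatocyte sums are higher in both tumor libraries, the AM sum is lower, at 11594 and 11778 CPM against 15148 and 15284 CPM, and the Kupffer cell sum stays under 2 CPM.

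Of the other genes of the complement system, from a list of 41, 30 were tested, of which 22 were higher, 4 were lower and 4 did not pass the test. Of the 30, 15 had under 10 counts in both control libraries and passed the filter through the tumor group, so they could only come out higher, and the count is a description. With at least 10 counts required in every library the other 15 remained, of which 8 were higher and 4 lower, beside 27.1% and 26.0% of all genes tested under that filter, with a median log2 fold change of 0.37. Scaling on AM identity genes gave 25 higher and 1 lower of the 30, where 67.1% and 5.56% of all genes were so called.

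Among early components, C4b, which encodes C4, and C4a, which encodes a close copy of it, rose together. C4a had 44 and 45 counts in the control and 397 and 434 in the tumor libraries, or 3.12 ± 0.153 on the log2 scale (SE). C4b had 32 and 33 against 172 and 182 counts, or 2.34 ± 0.204 (SE). Reads can be shared between these near-identical genes, so each value is uncertain. C1ra, for a protease that C1q carries, stood at 579 and 546 against 577 and 698 counts, with a log2 fold change of 0.08 ± 0.0815 and an edgeR adjusted p of 0.443, but under scaling on AM identity genes it was called higher, by 0.54 ± 0.0832 with an adjusted p of 4.45e-07. Its close relative C1rb had 34 and 73 against 30 and 23 counts and was called lower, with a log2 fold change of -1.13 ± 0.354 and an adjusted p of 0.00862. The call was not made without control replicate 2 (-0.35, adjusted p of 0.588), under scaling on AM identity genes (-0.67, adjusted p of 0.0783), by the DESeq2 Wald test (-1.16, adjusted p of 0.220) or by limma-voom (-0.97, adjusted p of 0.0514). Fcna, for a ficolin made by macrophages, was lower, with 58 and 39 against 22 and 24 counts, a log2 fold change of -1.16 ± 0.305 and an adjusted p of 0.00199. Without control replicate 1 its change was -0.99, with an adjusted p of 0.0748. Fcnb, for a ficolin of the lectin pathway stored by neutrophils, had 0 counts in both controls and 197 in each tumor library, at least 52.8-fold higher than the highest floor of a control library.

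The 6 fluid-phase regulators each had under 10 counts in both controls, so their higher level is a description. Of 7 membrane regulators 3 were tested. Clu, for clusterin, rose by 4.77 ± 0.282 on the log2 scale (SE), from 5 and 8 to 188 and 198 counts. Vtn, for vitronectin, a plasma protein, was at 0 in both controls against 177 and 218 tumor counts, which makes it at least 53.8-fold higher. On the membrane side, Cd55, whose product takes apart the C3-cleaving enzyme, rose by 4.11 ± 0.140 (SE), from 40 and 30 to 619 and 673 counts, whereas Cr1l, which encodes the rodent regulator Crry, changed by 0.12 ± 0.0466, from 87.7 ± 0.359 to 95.5 ± 1.03 CPM (SD, n = 2), with an edgeR adjusted p of 0.0283. This call of Cr1l was lost without control replicate 1 (0.11, adjusted p of 0.194), control replicate 2 (0.11, adjusted p of 0.186) or tumor replicate 1 (0.11, adjusted p of 0.105), and with all 4 libraries by the DESeq2 Wald test (0.11, adjusted p of 0.188) or with no filter (0.11, adjusted p of 0.120). Under scaling on AM identity genes Cr1l was instead higher by 0.58 ± 0.0542, with an adjusted p of 3.58e-12.

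In all, 14 of the 41 genes had 0 counts in both control libraries, and 10 of these were tested. Besides Fcnb and Vtn they were Mbl2, Masp1, C8a, C8b, C9, Cfi, C4bp and Cpn1, named here after their values were seen. Most encode plasma proteins that the liver is known to make, such as the pore-forming components of the terminal pathway. The 10 had between 15 and 218 counts in a tumor library and lower bounds between 4.02-fold and 53.8-fold. The part of RNA from other cells in them was not tested.

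The remaining receptors tested were the chains of integrins that bind C3 fragments, and C5ar2. Itgam, for the alpha chain of complement receptor 3, went from 21 and 18 to 2258 and 2618 counts, or from 1.13 ± 0.0143 to 131.9 ± 2.14 CPM (SD, n = 2). Its log2 fold change was 6.86 ± 0.104 (SE). The annotated gene Gm49368 overlaps it on the same strand, so reads may be split between them. Itgam encodes CD11b, which cells of the CD11b- gate given for AMs should not carry on their surface. It is also a marker of neutrophils and eosinophils, whose lists were higher in these libraries, and the part of such cells in its rise was not tested. Itgax, for the alpha chain of complement receptor 4 and a marker of AMs, fell by 0.48 ± 0.0213 on the log2 scale, and Itgb2, for the chain shared by both receptors, by 0.29 ± 0.0162 (SE). Under scaling on AM identity genes Itgax changed by -0.02 and was not called, and Itgb2 was higher by 0.17. C5ar2, for the second C5a receptor, had 85 and 94 against 140 and 119 counts, with a log2 fold change of 0.43 ± 0.191 and an edgeR adjusted p of 0.0565 that did not pass the threshold. It was called higher under scaling on AM identity genes (0.90 ± 0.191, adjusted p of 7.72e-05), with total counts as library sizes (0.50, adjusted p of 0.0282), with at least 10 counts in every library (0.46, adjusted p of 0.0356), without control replicate 2 (0.61, adjusted p of 0.0225) and without tumor replicate 2 (0.63, adjusted p of 0.00436).

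**Figure D5:**
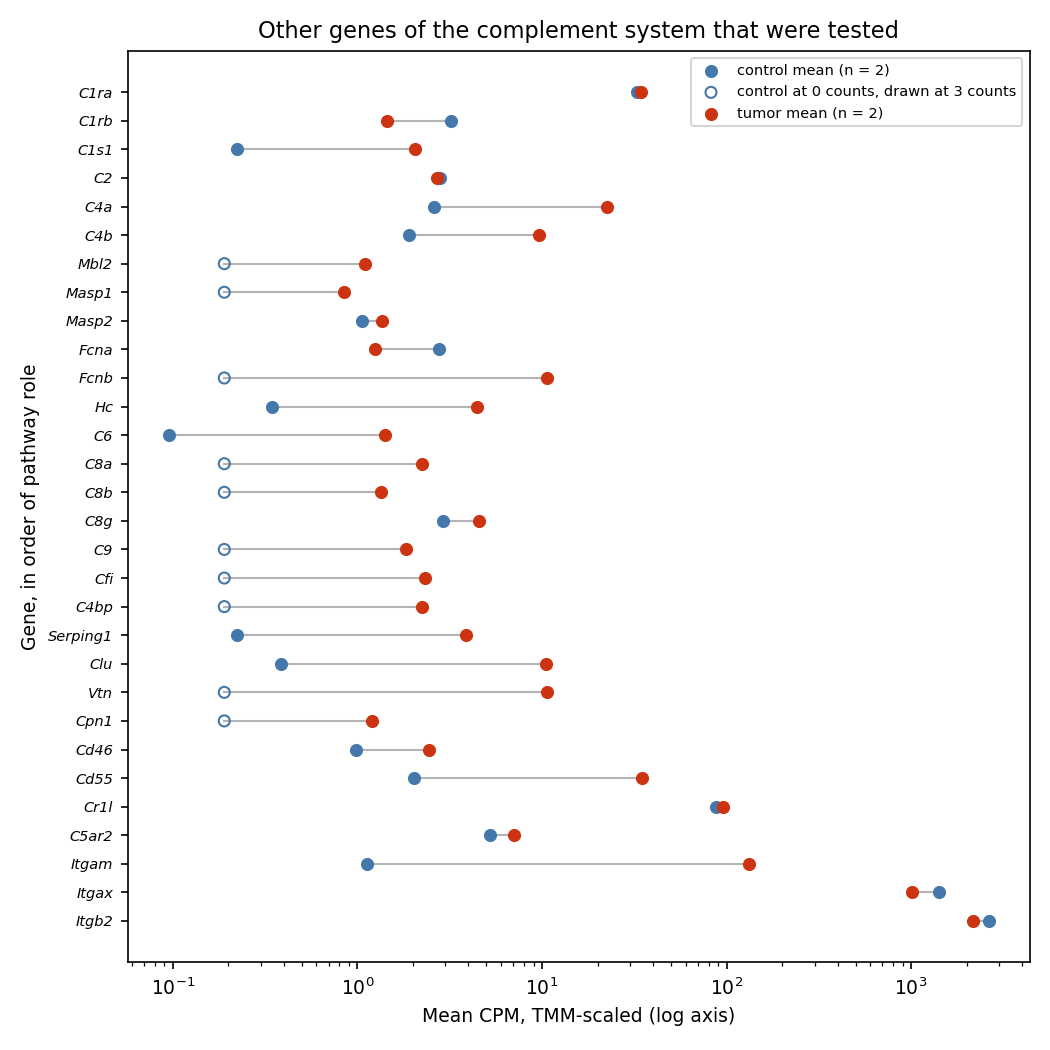
Mean TMM-scaled CPM, on a log axis, of the 30 other complement genes tested, in order of pathway role; blue is the control mean, red the tumor mean (n = 2 each), and open circles mark control means of 0, drawn at the value of 3 counts. The red point lies to the right of the blue one for the 22 genes called higher, and the open circles belong to 10 genes with 0 control counts.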

How the data were processed

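Per the methods of the study and the labels, total RNA of purified alveolar macrophages was extracted with TRIzol, libraries were made with a NEBNext Ultra kit, paired reads were aligned with HISAT2 2.0.5 and reads per gene were counted with featureCounts. DESeq2 is also named in the submitters' processing notes. The deposited table holds raw whole-number counts, not normalized by the authors. Genome build, strand setting and treatment of shared reads are not given in the sources used here. Of 54532 gene identifiers 54495 were found in GENCODE M21, 98.3% of them with the same coordinates, so coordinates are given as GRCm38. Groups came from the titles in the labels.

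The counts were fitted with edgeR 4.0.16 in R 4.3.3. filterByExpr kept genes at a minimum count of 10 and libraries were scaled by TMM. Tumor was compared with control by the quasi-likelihood test, with 2 residual degrees of freedom and a common dispersion of 0.000916. A median of 24.2 prior degrees of freedom came from the spread over all genes. Intervals and p-values thus rest mostly on that shared spread, and less on the spread of each gene itself. P-values were adjusted by Benjamini-Hochberg over all 14256 genes tested, with a threshold of 0.05. Standard errors are the fold change divided by the root of the F statistic, and 95% intervals use the total degrees of freedom. Log2 CPM used a prior count of 2. TPM used the gene lengths of the table. A fold against 2 controls at 0 counts is a lower bound, from the lower tumor CPM and the higher control value of 3 counts (0.190 CPM). Fits were first tested on simulated data.

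Replicates of a group differed by more than counting noise (chi-square per gene 1.81 in control and 2.30 in tumor), and all 4 libraries were counted. This spread cannot show whether the libraries came from separate mice, since separate preparations of the same RNA can also exceed counting noise. The 9 genes and all lists were chosen with earlier results of these data known. Named were the 9 genes, other complement genes past the threshold with at least 100 counts on average in the higher group, the leading gene of a marker list in each group, and the 5 genes most like the mean C1q profile. Any other named complement or marker gene (C1ra, C1rb, Fcna, C5ar2, genes at 0) was chosen with its values in view. One complement gene is not reported here. The alternatives were DESeq2 1.42.0 size factors, total counts, scaling on AM identity genes, no filter, at least 10 counts in every library, the DESeq2 Wald test, limma-voom (limma 3.58.1), the replicate number as a block, the longest annotated transcript as gene length, and leaving out each library.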

Additional observations from a re-analysis of the deposited data

How the results depend on the processing

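Of 96 single-gene values of the 8 tested complement genes under the alternatives, 87 kept their direction and their side of the threshold, 8 no longer passed it, all of Cfb, and 1 changed direction, C3 at 0.31 under scaling on alveolar macrophage identity genes. For Cfb these were -0.44 with total counts, -0.05 with identity scaling, -0.48 with at least 10 counts in every library, -0.52 with the DESeq2 Wald test, -0.50 with the replicate block, and between -0.60 and -0.43 without 1 library; the cause was not tested. Leaving out 1 library left 7 or 8 of the 8 tested genes called, a lone library being assumed to vary like the others. Identity scaling gave 9570 genes higher and 793 lower over all genes. At least 10 counts in every library left 12 other complement genes and 39 marker genes called, against 26 and 78, since fewer genes were tested. With the longest transcript as length, C1qa stood at 25.0 TPM in control and 13.8 in tumor, C1qb at 17.2 and 7.16, and C1qc at 13.2 and 6.19. Replicate numbers did not pair the libraries, as deviations of same-numbered libraries correlated at -0.00278; with the replicate number as a block 7 of the 8 genes and 7446 genes in all were called. Without a filter Vsig4 had an adjusted p of 0.609 with edgeR, and 0.667 with DESeq2. Depth limits the C1q chains, Cfb and C3ar1, with 40 to 193 counts a library, and Vsig4 most.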
